A study of Mus musculus with 16 samples.

Results

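The oestrogen receptors Esr1 and Esr2 and the progesterone receptor Pgr were described in adipose tissue RNA of female mice. The members were the 3 genes themselves, taken with every array probe whose transcript accession named them. They had 4 probes of the 41174 on the array, and these 3 were among 19096 named genes. All 4 probes passed the filter on dim probes, and none was saturated on any array. RNA of 16 samples, which the labels call biological replicates, was hybridised to one-colour Agilent arrays. There were 4 arrays in each of 4 groups: brown adipose tissue (BAT) of mice with an adipose-tissue specific knockout of the glucocorticoid receptor (AdipoKO_BAT), BAT of wild-type control mice (CTL_BAT), white adipose tissue (WAT) of such knockouts (AdipoKO_WAT) and WAT of controls (CTL_WAT). All mice were female. The labels give no age, strain, Cre driver, treatment, oestrous stage or anatomical site of either depot. Signals were scaled by subtracting, on the log2 scale, the 75th percentile of each array, and the result is called the level of a probe. Differences between groups are log2 values taken within a probe. Levels of different probes are set side by side only to describe dim signals or a shared order over samples.

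Esr1 and Esr2 encode the nuclear receptors for oestrogen (ER alpha and ER beta), and Pgr encodes the nuclear receptor for progesterone. Each binds DNA as a dimer once its steroid is bound and changes transcription of nearby genes, and Pgr is itself a classical gene switched on by oestrogen through Esr1. In fat, Esr1 is the main oestrogen receptor of adipocytes, and mice that lack it gain white fat. The glucocorticoid receptor, encoded by Nr3c1, is a steroid receptor of the same superfamily. Its DNA element is related to that of the oestrogen receptors but differs from it.

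The promoter windows of the members are shown because both the receptor that was deleted and the receptors measured here act through short DNA elements. RefSeq (GRCm38.p6) gave 2 start sites for Esr1, 1 for Esr2 and 1 for Pgr. The 250 bases before each Esr1 start (chr10:4611739-4611988 and chr10:4709908-4710157, plus strand) and before the Pgr start (chr9:8899583-8899832, plus strand) are printed 5′ to 3′, with matches to the motifs below in capitals.
Esr1, first start: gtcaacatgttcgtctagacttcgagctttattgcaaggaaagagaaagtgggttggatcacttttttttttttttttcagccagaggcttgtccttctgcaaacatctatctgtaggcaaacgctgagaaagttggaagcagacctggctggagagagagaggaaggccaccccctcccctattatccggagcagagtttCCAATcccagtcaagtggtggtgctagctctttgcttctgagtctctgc
Esr1, second start: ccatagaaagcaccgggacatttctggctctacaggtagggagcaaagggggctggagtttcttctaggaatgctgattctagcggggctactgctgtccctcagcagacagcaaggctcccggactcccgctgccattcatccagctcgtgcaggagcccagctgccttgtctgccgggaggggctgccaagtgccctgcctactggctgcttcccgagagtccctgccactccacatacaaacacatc
Pgr: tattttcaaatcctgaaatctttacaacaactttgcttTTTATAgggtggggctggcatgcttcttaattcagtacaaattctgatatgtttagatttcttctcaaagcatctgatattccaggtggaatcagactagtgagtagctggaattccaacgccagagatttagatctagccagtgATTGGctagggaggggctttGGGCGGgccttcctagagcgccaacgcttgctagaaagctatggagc
Motifs were searched on both strands. The glucocorticoid response element (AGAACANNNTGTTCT) and its half-site TGTTCT, and the oestrogen response element (AGGTCANNNTGACCT) and its half-site AGGTCA, matched in none of the 4 windows, that of Esr2 included. Over all 32851 RefSeq promoter windows of the same length these were present in 0.00913%, 16.1%, 0.0213% and 14.0% of windows, in that order. The capitals in the first Esr1 window are a CCAAT box 49 bases before the start, a motif present in 33.8% of all windows. In the Pgr window they are a reverse-strand TATAAA (12.4% of windows) 212 bases before the start, a reverse-strand CCAAT box 67 bases before it and a GC box (GGGCGG, 32.7% of windows) 47 bases before it. The Esr2 window, on chromosome 12, held a reverse-strand CCAAT box 186 bases and an E-box (CACGTG, 6.02% of windows) 72 bases before its start. The second Esr1 window held none of the 8 motifs. Which start is used in these samples was not measured.

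The samples were not alike in cell content. The arrays of AdipoKO_WAT 1 and 2 differed by 1.11 times the noise between repeated spots, against at least 2.30 times in the other 119 pairs of arrays. They were averaged and counted as 1 sample, AdipoKO_WAT 1-2, so that this group had n = 3 and the series 15 samples. The level of a marker list in a sample is the median log2 deviation of its genes from their means over the samples. All 12 adipocyte markers were well above background in every group, but their level was -1.97, -1.10 and 0.80 in AdipoKO_WAT 1-2, 3 and 4, against 0.22, 0.31, -0.12 and -0.29 in CTL_WAT 1 to 4. B cell markers ran the other way, at 5.09, 4.80 and -1.29 in AdipoKO_WAT and 0.16, -0.47, 3.71 and 3.04 in CTL_WAT. CTL_WAT 1 and 4 held intestinal markers (6.50 and 5.18), and skeletal muscle markers were at 2.56 to 5.30 in AdipoKO_BAT and -1.06 to 3.09 in CTL_BAT. Brown adipocyte markers were at 2.25 to 2.82 in all BAT samples and at -4.75 to -2.20 in all WAT samples. In such bulk RNA, fewer cells of a type and less RNA per cell cannot be told apart. The targeted gene Nr3c1 was lower in knockouts of both depots, at 1.45 ± 0.21 in AdipoKO_BAT and 2.49 ± 0.16 in CTL_BAT (SD, n = 4 each; limma adjusted p = 0.0816), and at 1.53 ± 0.15 in AdipoKO_WAT (n = 3) and 2.19 ± 0.28 in CTL_WAT (n = 4; limma adjusted p = 0.210). In each depot the groups did not overlap, and the exact permutation p was 0.0286, the smallest these group sizes allow. Knockouts lay wholly below controls for 8.61% of all features in BAT and 1.21% in WAT. Of the 3 other Nr3c1 probes, 2 were also wholly lower in AdipoKO_BAT and 0 in AdipoKO_WAT. Where these probes lie relative to the deleted part of the gene is not given in the sources used here.

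Esr1 was the only one of the 3 receptors with a probe well above background in every sample. This probe, A_52_P237077, was spotted 10 times and passed on all 16 arrays, with an SD between spots of 0.0438 to 0.150 on the log2 scale. Its processed signals were 796, 741, 1208 and 1065 in AdipoKO_BAT, 466, 659, 874 and 702 in CTL_BAT, 180, 159, 242 and 536 on the arrays of AdipoKO_WAT 1 to 4, and 344, 511, 613 and 633 in CTL_WAT. As levels, these were 1.41, 1.21, 1.28 and 1.13 in AdipoKO_BAT, against -0.27, 0.27, 0.73 and 0.48 in CTL_BAT. In AdipoKO_WAT 1-2, 3 and 4 they were -2.08, -1.60 and 0.14, against -1.07, -0.69, -0.44 and -0.71 in CTL_WAT. The order of the group means was AdipoKO_BAT (1.26 ± 0.12, SD), CTL_BAT (0.30 ± 0.43), CTL_WAT (-0.73 ± 0.26) and AdipoKO_WAT (-1.18 ± 1.17). AdipoKO_BAT and CTL_BAT did not overlap, nor did CTL_BAT and CTL_WAT. The AdipoKO_WAT samples lay on both sides of CTL_WAT, so the last 2 groups in it were not distinguishable by their spread.

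**Figure D1:**
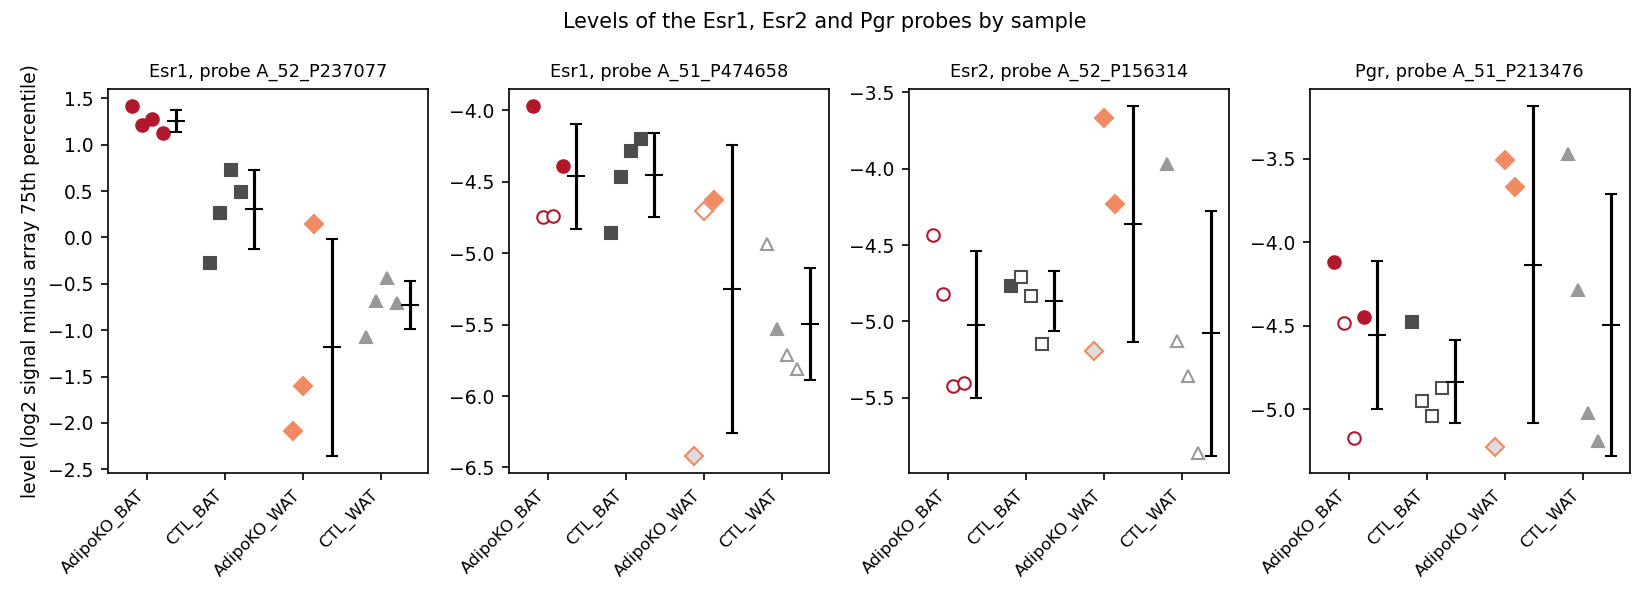
Level of each member probe (log2 signal relative to the array's 75th percentile) in AdipoKO_BAT, CTL_BAT, AdipoKO_WAT and CTL_WAT. Each point is a sample (n = 4 per group, n = 3 in AdipoKO_WAT), filled where well above background, open where not, and grey where 1 of the 2 averaged arrays was; bars are mean ± SD. The bright Esr1 probe is highest in AdipoKO_BAT (1.13 to 1.41), and the panels of the other 3 probes hold open points and overlapping knockout and control groups.

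The first comparison asked whether the receptor levels differed between knockout and control fat of the same depot. In BAT, Esr1 was higher in all 4 knockouts than in all 4 controls, by 0.96 ± 0.38 (SE; 1.94-fold, 95% interval 0.14 to 1.77). The difference did not pass the test over all features (limma adjusted p = 0.307), which called 0.0159% of features in this comparison. The exact permutation test of this value alone gave p = 0.0286, the smallest possible. Knockouts lay wholly above controls for 9.36% of all features in BAT, so this separation was not rare in these arrays. Esr1 had a larger difference than 97.4% of features, and 7.99% of features had a smaller p. Within slides 1 to 4, each of which held 1 array of every group, the difference was 1.14, 0.48, 1.55 and 0.65. Each group always lay at its own array position, so position and group cannot be told apart.

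The separation of the BAT groups for Esr1 was seen with each scaling between arrays and not without one. The 75th percentiles of the arrays were 299, 320, 497 and 486 in AdipoKO_BAT, all below the 562, 547, 528 and 502 in CTL_BAT. Without any scaling the log2 signals of Esr1 were 9.53 to 10.24 in AdipoKO_BAT and 8.86 to 9.77 in CTL_BAT, and so overlapped, with means of 9.87 in AdipoKO_BAT and 9.36 in CTL_BAT, a difference of 0.50. With array medians, quantile normalization or a normexp background the groups stayed apart, with differences of 0.81, 0.92 and 0.79. The median difference over all features in BAT was 0.10. Without AdipoKO_BAT 1 and 2, the arrays with the lowest percentiles, the Esr1 difference was 0.90 (limma adjusted p = 1.0), a setting chosen after seeing the data.

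In WAT, Esr1 was lower in knockouts by 0.45 in the mean (-0.45 ± 0.41 SE, 95% interval -1.33 to 0.42; limma adjusted p = 0.497; exact permutation p = 0.457), and the groups overlapped. The test called 0.0597% of features in this comparison, and the median over all features was 0.24. This value depended on which AdipoKO_WAT samples were used. Without AdipoKO_WAT 4 the difference was -1.12 (limma adjusted p = 0.00652), when 9236 features were called, against 15 with all samples. Without AdipoKO_WAT 1-2 it was -0.0046 (limma adjusted p = 0.996). Within slides it was -0.53, -1.45, 0.58 and -1.32, with AdipoKO_WAT 3, 2, 4 and 1 on slides 1 to 4.

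Esr1 and the adipocyte markers were low in the same WAT samples. AdipoKO_WAT 1-2 and 3, with adipocyte levels of -1.97 and -1.10, held the lowest Esr1 levels of the series, and AdipoKO_WAT 4, with the highest adipocyte level (0.80), held the highest Esr1 level of the WAT samples. The endothelial markers followed the same order in AdipoKO_WAT (-1.25, -1.03 and 0.49). So did those of fibroblasts and progenitors (-0.91, -0.79 and 0.68) and mesothelium (-1.16, -0.09 and 2.64). Brown adipocyte and mammary epithelial markers also followed it. B cell, T and NK cell and macrophage markers ran in the opposite order. Taken as Esr1 level minus adipocyte level, the values were -0.66 to -0.12 in AdipoKO_WAT and -1.29 to -0.31 in CTL_WAT, and overlapped. In BAT the adipocyte level was 0.24 to 0.37 in knockouts and 0.06 to 0.36 in controls. Esr1 level minus adipocyte level was 0.86 to 1.04 in AdipoKO_BAT and -0.33 to 0.50 in CTL_BAT. The adipocyte level varied so little in BAT that subtracting it could not bring these groups to overlap, so their separation here adds nothing. Endothelial markers in BAT were at 1.26, 0.93, 0.21 and 0.28 in knockouts and at 0.03 to 0.25 in controls. The T and NK cell list in BAT was at -0.20, -1.21, -1.41 and -1.42 in AdipoKO_BAT, all above its range of -1.56 to -1.50 in CTL_BAT. The part of adipocyte, T and NK cell, endothelial or muscle content in the BAT difference of Esr1 was not tested.

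**Figure D2:**
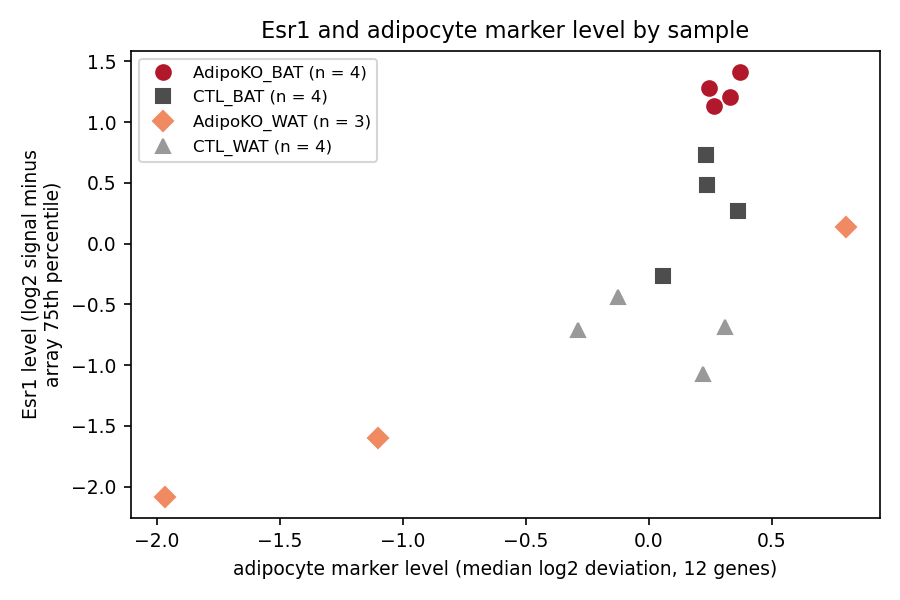
Level of Esr1 (probe A_52_P237077, log2 signal relative to the array's 75th percentile) against the adipocyte marker level (median log2 deviation of 12 genes) in each of 15 samples. The 4 AdipoKO_BAT samples lie above the 4 CTL_BAT samples, and adipocyte levels vary little in BAT. AdipoKO_WAT 1-2 and 3 are low on both axes.

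The knockout differences of Esr1 in the 2 depots were compared by the genotype by depot interaction, which was 1.41 ± 0.56 (SE, 95% interval 0.21 to 2.61). It did not pass over all features (limma adjusted p = 0.431), where 1 feature (0.00398%) was called. Without AdipoKO_WAT 4 the interaction was 2.07 (limma adjusted p = 0.00302), when 4067 features were called, and without AdipoKO_WAT 1-2 it was 0.96.

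The largest difference of Esr1 was that between depots in knockouts. There it was 2.44 ± 0.41 (SE) higher in BAT than in WAT (5.43-fold, 95% interval 1.56 to 3.32; limma adjusted p = 0.00067; exact permutation p = 0.0286), and every AdipoKO_BAT sample lay above every AdipoKO_WAT sample. The test called 30.6% of features between depots in knockouts, 16.6% of all features were called higher in BAT, and 14.7% of features lay wholly higher in BAT. The difference was 3.02, 3.35, 1.14 and 3.16 within the slides and 1.99 to 3.10 with any single sample left out. Those 2 ends were the values without AdipoKO_WAT 1-2 and without AdipoKO_WAT 4. Adipocyte levels were -1.97, -1.10 and 0.80 in AdipoKO_WAT 1-2, 3 and 4, and 0.24 to 0.37 in AdipoKO_BAT. Esr1 level minus adipocyte level was 0.86 to 1.04 in AdipoKO_BAT and -0.66 to -0.12 in AdipoKO_WAT. The part of cell content in this depot difference was not tested. Among controls Esr1 was 1.03 ± 0.38 (SE) higher in BAT than in WAT (2.04-fold, 95% interval 0.22 to 1.84), again without overlap (exact permutation p = 0.0286). That difference lay at the threshold, with a limma adjusted p of 0.0504 in the fit with 1 probe per gene and of 0.0488 in the fit over all probes. It passed when AdipoKO_WAT 1-2, AdipoKO_WAT 4 or CTL_BAT 1 was left out, and it was 0.86 (adjusted p = 0.239) without CTL_WAT 1 and 4, a setting also chosen after seeing the data. In controls 33.3% of features were called between depots, and 24.8% lay wholly higher in BAT. Within slides the control difference was 1.34, 1.42, 0.17 and 1.19. The separation of the control depots was seen with each scaling between arrays and not without one. Unscaled log2 signals were 8.86 to 9.77 in CTL_BAT and 8.43 to 9.31 in CTL_WAT, and overlapped. The array percentiles were 502 to 562 in CTL_BAT and 725 to 1035 in CTL_WAT. The knockout depots stayed apart unscaled, at 9.53 to 10.24 in AdipoKO_BAT and 7.40 to 9.07 in AdipoKO_WAT.

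**Figure D3:**
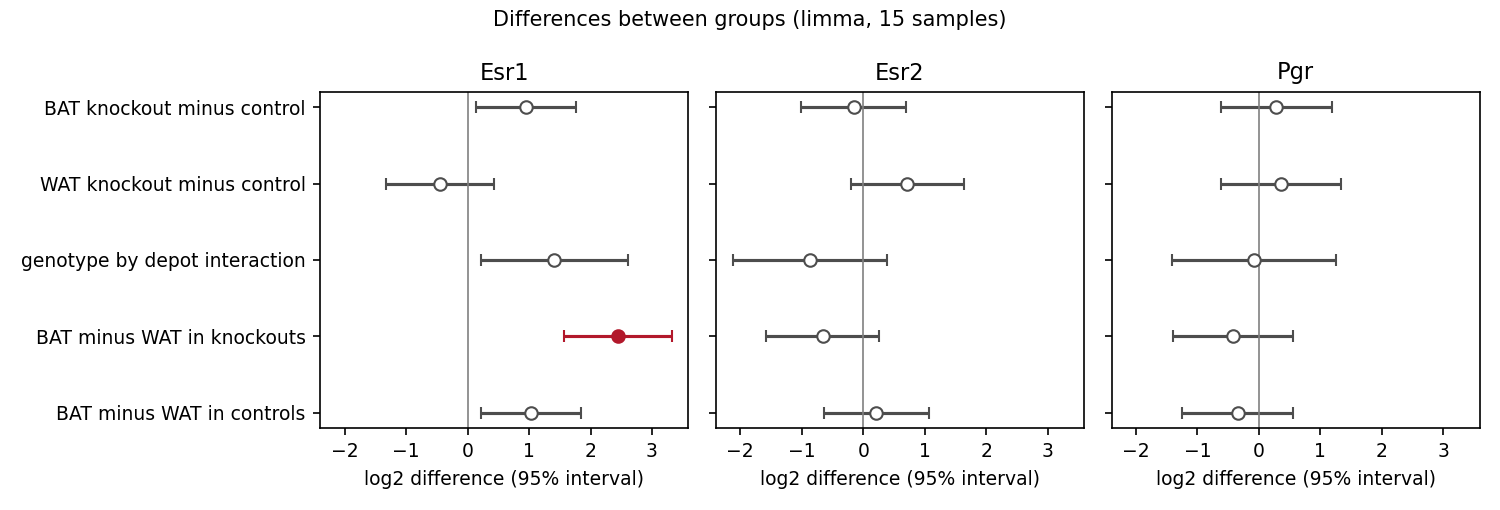
Differences of Esr1, Esr2 and Pgr in the 5 comparisons on the log2 scale, with 95% intervals from limma over 15 samples. Filled red marks an adjusted p under 0.05, and the open symbols did not pass. Esr1 passed between depots in knockouts (2.44), and all intervals of Esr2 and Pgr span 0. Values of Esr2 that involve AdipoKO_BAT are those of signals not well above background.

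The other Esr1 probe, A_51_P474658, was spotted once and lay near background. It was well above background on 2 of 4 arrays in AdipoKO_BAT, 4 of 4 in CTL_BAT, 2 of 4 in AdipoKO_WAT and 1 of 4 in CTL_WAT. Its levels were -3.97, -4.75, -4.74 and -4.39 in AdipoKO_BAT, against -4.86, -4.47, -4.28 and -4.20 in CTL_BAT, which overlapped. The knockout difference in BAT was -0.01 (exact permutation p = 1), against 0.96 for the bright probe. The dim probe passed the filter only through CTL_BAT, so its differences are those of signals near background and show neither agreement nor disagreement with the bright probe. With the mean of both probes the BAT difference of Esr1 was 0.47 (limma adjusted p = 0.590). Between depots in controls the dim probe was 1.05 higher in BAT (limma adjusted p = 0.0368 in the fit over all probes; exact permutation p = 0.0286). CTL_BAT was the group through which it passed the filter, so this call is no support for a depot difference of Esr1. That call was lost with the near-identical arrays kept as 2 samples (adjusted p = 0.126), with slide or replicate number as a block and the averaged sample shown by its first array (0.133 and 0.182), without CTL_WAT 1 and 4 (0.0827) or without any single one of CTL_WAT 2, 3 and 4 and CTL_BAT 2, 3 and 4 (0.0660 to 0.0995), and the direction turned with a normexp background (-0.04). Its levels in WAT were -6.42, -4.71 and -4.63 in AdipoKO_WAT and -4.93, -5.53, -5.72 and -5.81 in CTL_WAT, a difference of 0.25 with overlap (limma adjusted p = 0.693; exact permutation p = 0.657). Among knockouts it was 0.79 higher in BAT than in WAT, which did not pass (limma adjusted p = 0.149; exact permutation p = 0.2), and without AdipoKO_WAT 4 it was 1.10 (limma adjusted p = 0.0447). The arrays averaged in AdipoKO_WAT 1-2 read -7.61 and -5.22 for this probe, which were counted as 1 sample.

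Esr2 lay near background in every group. Its probe A_52_P156314 was spotted 10 times and was well above background on 0 of 4 arrays in AdipoKO_BAT, 1 of 4 in CTL_BAT, 3 of 4 in AdipoKO_WAT and 1 of 4 in CTL_WAT. Levels were -4.44, -4.82, -5.42 and -5.40 in AdipoKO_BAT (mean -5.02 ± 0.48), against -4.77, -4.71, -4.84 and -5.15 in CTL_BAT (-4.87 ± 0.20). In WAT they were -5.19, -3.67 and -4.23 in AdipoKO_WAT 1-2, 3 and 4 (-4.36 ± 0.77), against -3.97, -5.13, -5.36 and -5.86 in CTL_WAT (-5.08 ± 0.80). The groups overlapped in both depots. The knockout difference in WAT was 0.72 ± 0.43 (SE, 95% interval -0.21 to 1.64; limma adjusted p = 0.346; exact permutation p = 0.286). The probe passed the filter only through AdipoKO_WAT, where the filter counted the near-identical arrays 1 and 2 separately. On array 1 the probe had 0 of 9 used spots well above background, and on array 2 it had 7 of 10. Since it was not well above background on any AdipoKO_BAT array, no fold is given against that group, neither for CTL_BAT (limma adjusted p = 0.926) nor for AdipoKO_WAT (limma adjusted p = 0.285), whose samples overlapped with AdipoKO_BAT. The control difference of BAT minus WAT was 0.21 ± 0.40 (SE, 95% interval -0.64 to 1.06; limma adjusted p = 0.733). The interaction, which uses AdipoKO_BAT, did not pass (limma adjusted p = 0.623).

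Pgr was also dim. Its probe A_51_P213476 was spotted once and was well above background on 2 of 4 arrays in AdipoKO_BAT, 1 of 4 in CTL_BAT, 3 of 4 in AdipoKO_WAT and 4 of 4 in CTL_WAT. Levels were -4.12, -4.48, -5.17 and -4.45 in AdipoKO_BAT (-4.56 ± 0.44), against -4.48, -4.95, -5.04 and -4.87 in CTL_BAT (-4.83 ± 0.25). They were -5.23, -3.51 and -3.67 in AdipoKO_WAT 1-2, 3 and 4 (-4.13 ± 0.95), against -3.47, -4.29, -5.02 and -5.19 in CTL_WAT (-4.49 ± 0.79). All these groups overlapped. The knockout difference was 0.28 ± 0.42 (SE, 95% interval -0.62 to 1.18; limma adjusted p = 0.856) in BAT and 0.36 ± 0.45 (SE, 95% interval -0.62 to 1.33; limma adjusted p = 0.618) in WAT. Between depots the difference of BAT minus WAT was -0.42 in knockouts (limma adjusted p = 0.546) and -0.34 in controls (limma adjusted p = 0.588), and the interaction was -0.08 (limma adjusted p = 0.975).

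The levels of Esr2 and, less closely, of Pgr moved with those of other dim probes. The 1070 probes of odorant and vomeronasal receptor genes, a set chosen after the values were seen, had a median level of -5.49, -5.79, -6.50 and -6.58 in AdipoKO_BAT and of -5.72, -6.14, -5.85 and -6.42 in CTL_BAT. In WAT this median was -6.57, -4.67 and -5.70 in AdipoKO_WAT 1-2, 3 and 4, and -5.89, -6.48, -6.64 and -6.80 in CTL_WAT. AdipoKO_WAT 3 was highest and CTL_WAT 4 lowest both for these probes and for Esr2. Esr2 lay 0.94 to 1.92 above this median over all 15 samples, and Pgr 0.81 to 2.42 above it. The part of this shift in the Esr2 and Pgr differences was not tested. Ovary, oviduct, uterus and mammary epithelium, which are known to express these receptors, were looked for by their markers, and their part in the values was not tested. A marker counted as well above background by the same flags as the members. Of 12 ovary markers, 6 in AdipoKO_BAT, 7 in CTL_BAT, 8 in AdipoKO_WAT and 7 in CTL_WAT reached that mark on 3 or more arrays. Fshr, Lhcgr, Cyp11a1, Bmp15 and Oosp1 were well above background on no AdipoKO_BAT array, Lhcgr, Bmp15 and Oosp1 on no CTL_BAT array, Lhcgr and Bmp15 on no AdipoKO_WAT array and Cyp11a1 on no CTL_WAT array. The ovary list stood at -0.35, 0.98 and 0.23 in AdipoKO_WAT 1-2, 3 and 4, and at 0.53, -0.53, -0.31 and -0.53 in CTL_WAT. The list of oviduct and uterus markers, of which 10 in AdipoKO_WAT and 9 in CTL_WAT were well above background on at least 3 arrays, stood at -0.18, 0.76 and 0.26 in AdipoKO_WAT and at 0.80, -0.29, -0.18 and -0.32 in CTL_WAT. AdipoKO_WAT 3 and 4 and CTL_WAT 1 were the 3 highest WAT samples for both lists, for Esr2, for Pgr and for the odorant and vomeronasal receptor probes. Of the 15 mammary epithelial markers, 12 in AdipoKO_WAT and 11 in CTL_WAT were well above background on at least 3 arrays, and Csn1s1 on no WAT array. That list stood at -0.73 to 0.43 in AdipoKO_WAT and 0.59 to 1.35 in CTL_WAT.

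**Figure D4:**
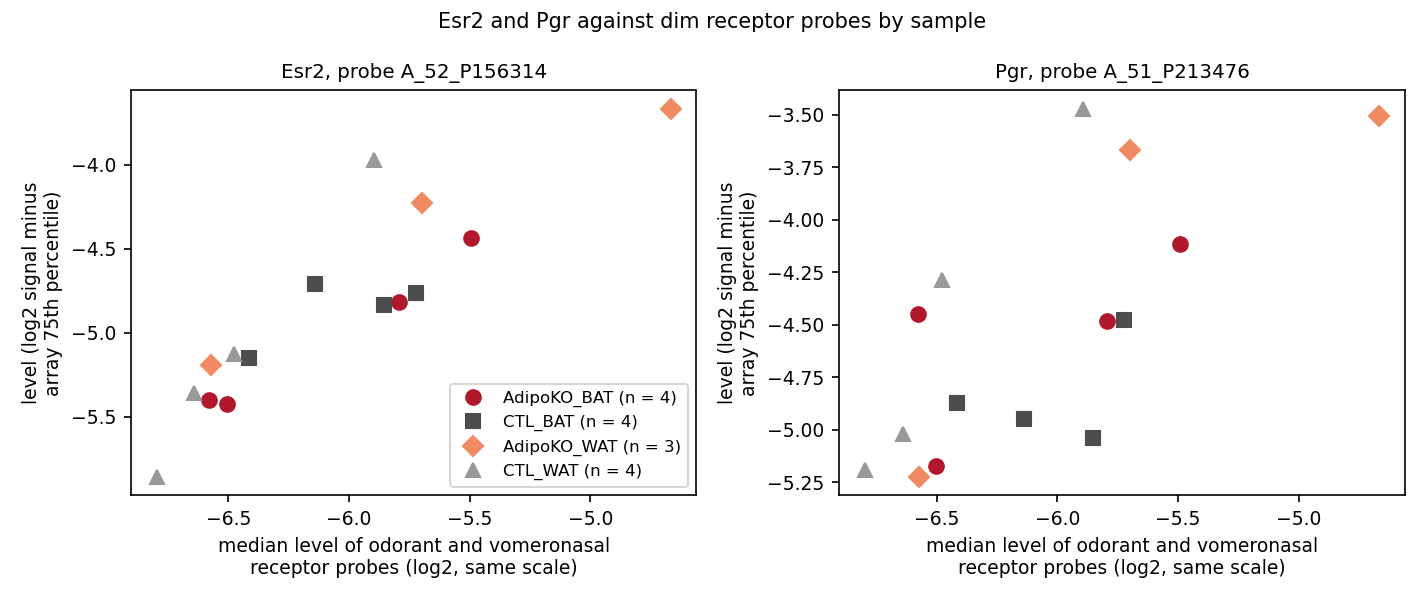
Levels of Esr2 and Pgr (log2 signal relative to the array's 75th percentile) in each sample against the median level of 1070 odorant and vomeronasal receptor probes on the same scale. Esr2 rises with this median over the 15 samples, lying 0.94 to 1.92 above it, while Pgr is more scattered (0.81 to 2.42 above it).

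Genes around these receptors were described by 6 lists, with the members themselves left out. Of their 88 measured genes, 0 passed in the knockout comparison of either depot or in the interaction by limma, the one tool run, and 9 in BAT, 7 in WAT and 8 in the interaction had an unadjusted p under 0.05. These are 10.2%, 7.95% and 9.09% of the 88 genes, beside 13.1%, 18.0% and 10.4% of all features. Of the 10 membrane and non-classical receptors for oestrogen and progesterone, all measured, the median difference was 0.29 in BAT and -0.44 in WAT, beside 0.10 and 0.24 over all features. Gper1, the G protein-coupled oestrogen receptor, differed by 0.63 ± 0.36 (SE) in BAT and -0.19 ± 0.39 in WAT. Pgrmc1, a haem-binding membrane protein first described as a progesterone receptor component, was at 2.94 ± 1.05 in AdipoKO_WAT and 3.84 ± 0.31 in CTL_WAT (limma adjusted p = 0.261). Of 24 receptor chaperones and coregulators, Hsp90aa1, a chaperone that holds steroid receptors ready for hormone, was at 4.85 ± 0.25 in AdipoKO_BAT and 5.78 ± 0.26 in CTL_BAT, a difference of -0.93 that did not pass (limma adjusted p = 0.103). Ncor1, a corepressor of nuclear receptors, was at 3.63 ± 0.40 in AdipoKO_BAT and 2.98 ± 0.16 in CTL_BAT (limma adjusted p = 0.214).

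The oestrogen response list had 22 of 25 genes measured, with a median knockout difference of 0.10 in BAT and -0.15 in WAT. Greb1, an oestrogen-induced cofactor of Esr1, was at -4.04 ± 0.17 in AdipoKO_BAT and -4.59 ± 0.38 in CTL_BAT (limma adjusted p = 0.615). These are low signals, not far from those of the dim Pgr probe in the same groups (-4.56 and -4.83). In WAT, Aqp5, a water channel, was at -2.79 ± 0.92 in AdipoKO_WAT and -0.01 ± 0.96 in CTL_WAT (limma adjusted p = 0.0863). Sult1e1, the sulfotransferase that inactivates oestrogen, stood in both the response and the enzyme list and was at -2.54 ± 1.49 in AdipoKO_WAT and 0.26 ± 0.48 in CTL_WAT (limma adjusted p = 0.177). The WAT groups did not overlap for Aqp5 and Sult1e1, which 1.21% of features shared in that direction. The progesterone response list (14 of 20 measured) had medians of -0.03 in BAT and -0.06 in WAT, and the sex steroid enzymes (19 of 24 measured) of -0.19 and -0.38. Cyp19a1, the aromatase that makes oestrogen, differed by -0.44 ± 0.41 (SE) in BAT and 0.65 ± 0.44 in WAT, and passed in neither (limma adjusted p = 0.720 and 0.395). Its signals in WAT were also low (-3.63 in AdipoKO_WAT and -4.28 in CTL_WAT). Without AdipoKO_WAT 4, 35 of the 88 list genes passed in the WAT knockout comparison and 20 in the interaction, when 36.8% and 16.2% of all features did.

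Between depots 25 of these 88 genes passed in knockouts (16 without AdipoKO_WAT 1-2 or without AdipoKO_WAT 3) and 31 in controls. Over all features, 16.6% were called higher and 14% lower in BAT among knockouts, and 19.1% higher and 14.3% lower among controls. Esrra, an orphan nuclear receptor related to Esr1 that drives mitochondrial genes, passed in both. It was at 5.26 ± 0.28 in AdipoKO_BAT and 2.71 ± 0.28 in AdipoKO_WAT, and at 5.05 ± 0.13 in CTL_BAT and 2.83 ± 0.20 in CTL_WAT. Of the 22 oestrogen response genes, 4 were higher and 4 lower in BAT among knockouts, and 2 higher and 7 lower among controls. Igfbp4, a binding protein for insulin-like growth factors, was lower in BAT by 1.78 in knockouts and 2.18 in controls, and Adra2a, an adrenergic receptor that restrains lipolysis, by 2.82 and 2.98. Vegfa, the vascular growth factor, was 2.63 higher in BAT among knockouts. Of the 19 enzymes, 4 were higher and 2 lower in BAT among knockouts, and 4 higher and 3 lower among controls. Cyp1b1, which hydroxylates oestradiol, was lower in BAT by 2.18 in knockouts and 1.71 in controls, and Sult1e1 was lower in BAT by 2.45 among controls.

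Membrane receptors moved in both directions between depots, with 2 higher and 1 lower in BAT among knockouts and 1 higher and 4 lower among controls. Gper1 was 1.34 ± 0.39 (SE) higher in BAT among knockouts (limma adjusted p = 0.0199), and 0.51 ± 0.36 among controls (limma adjusted p = 0.324). Paqr7, a membrane progesterone receptor, was lower in BAT by 0.88 in knockouts and 1.16 in controls, and its relative Paqr9 was higher by 1.83 and 1.75. Among coregulators, with 2 higher and 2 lower in knockouts and 3 higher and 4 lower in controls, Phb2, a prohibitin that represses oestrogen receptors, was 1.61 higher in BAT in both. Of the 14 progesterone response genes 2 were higher and 2 lower in BAT among knockouts, and 1 higher and 3 lower among controls. Cebpb, a transcription factor of adipocyte formation, was higher in BAT by 3.34 in knockouts and 2.94 in controls, and Nr2f2, an orphan nuclear receptor, was lower by 0.62 and 1.29. List medians between depots lay between -0.53 and 1.13 in knockouts and between -0.59 and 1.16 in controls, beside -0.09 and 0.11 over all features.

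The genes with levels most like those of each member were taken by Pearson correlation over the samples of a depot, among 16674 named genes. These values describe 7 or 8 samples that share differences in cell content, and many genes reached like values. For Esr1 in BAT (8 samples) they were Gimap3 (r = 0.97), Mki67, Cstf2t, Tmem25 and Pttg1, with 54 genes above 0.9. Mki67 and Pttg1 are genes of dividing cells. Mki67 was at -1.66 to -1.39 in AdipoKO_BAT and -2.56 to -2.07 in CTL_BAT, and Pttg1 at 5.33 to 5.40 and 5.04 to 5.26. Both were wholly higher in BAT knockouts, as 9.36% of all features were. They were picked for likeness to Esr1, itself wholly higher there, so this is no separate support. Between depots the 2 genes differed in direction. Mki67 was lower in every BAT sample than in every WAT sample, and Pttg1 was higher. Cell division was not tested. For Esr1 in WAT (7 samples) they were Mb, the muscle oxygen carrier (r = 0.99), Plac9a, 5930430L01Rik, Mup3 and Lpin1, a phosphatidate phosphatase of fat synthesis, with 732 genes above 0.9. Mb was lowest in AdipoKO_WAT 1-2 (-7.45) and highest in AdipoKO_WAT 4 (-3.19) of the WAT samples, as Esr1 was. In AdipoKO_WAT 1-2 and 3 Mb (-7.45 and -6.51) lay below the median of the odorant and vomeronasal receptor probes (-6.57 and -4.67). The likeness of Mb to Esr1 thus includes very dim signals. The other genes named for Esr1 in WAT lay above that median in every WAT sample. Plac9a was at 2.37 to 4.98 and Lpin1 at 1.12 to 4.04. For Esr2 the closest were Calr in BAT (r = 0.98; 137 genes above 0.9) and Tmem87a in WAT (r = 0.999; 1502 genes above 0.9). For Pgr they were Snrnp200 in BAT (r = 0.97; 63 genes above 0.9) and Wnt5a, a signalling ligand, in WAT (r = 0.99; 792 genes above 0.9). Wnt5a was itself dim in WAT (-4.47 to -3.26), and Vmn1r28, a vomeronasal receptor gene, came next (r = 0.99). The median of the odorant and vomeronasal receptor probes correlated with Esr2 at 0.92 in each depot. With Pgr it correlated at 0.83 in WAT and 0.54 in BAT. The part of background in these likenesses was not tested.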

How the data were processed

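Members and lists were chosen with earlier results of these data known. Spot values came from Agilent Feature Extraction 12.0.0.7, per the file headers. Its processed signal is an intensity that the authors deposited after subtraction of background and spatial detrending, per the file headers, and arrays were not scaled to each other. The deposited median signal and background columns are raw intensity values, and the deposited flags, which are of another kind, are 0 or 1 per spot. Values in the table deposited for the series are on the intensity scale and equal each probe's mean processed signal, for all 41174 probes within a relative tolerance of 1e-04.

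Outlier spots were dropped and repeated spots averaged. A probe was kept when well above background (most of its spots flagged so) on at least 3 of 4 arrays of 1 group. Probes were named by accession through RefSeq: 28223 probes had 1 symbol and 12951 had none. The brightest probe of a gene was used, which left 16675 genes and 8430 unnamed probes (25105 features). Group means over the 15 samples were fitted together in limma 3.58.1 (R 4.3.3, with version 1.17.8 of the data.table package), with two-sided tests, Benjamini-Hochberg adjustment over all features of a comparison and a threshold of 0.05. An exact two-sided permutation test of group means was run for each member. The array percentile was 299 to 1035, and 66.7% to 83.6% of probes passed as well above background. Precision is limited by the number of arrays.

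Genes were named by rule: the members, Nr3c1, up to 3 genes per list and comparison past the threshold by smallest adjusted p (otherwise up to 2 with the smallest), and the 5 most correlated genes per member and depot. Gper1 and Cyp19a1 in the knockout comparisons, Gper1 between control depots and Nr2f2 between knockout depots are given outside this rule, chosen after their values were seen. The procedure was tested on simulated data. Same-numbered samples of different groups deviated together with correlations of -0.47 to 0.18 over all features, so the replicate numbers were not taken to pair samples. Alternatives were the background correction, scaling, filter, probe rule, near-identical arrays, slide or replicate block, the deposited value table, groups in the fit and single samples left out.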

Additional observations from a re-analysis of the deposited data

How the results depend on the processing

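The called result, Esr1 higher in BAT than in WAT among knockouts, kept its direction and its side of the threshold under all 29 alternatives (1.61 to 3.10). The BAT knockout difference of Esr1 stayed positive and did not pass under all 29 (0.47 to 1.10), and the lowest value was that with the mean of both probes. The difference of Esr1 between control depots passed with quantile normalization (1.05), array medians (1.18), the mean of the probes (1.04), only the 2 groups compared (1.03, adjusted p = 0.00811) and the replicate number as a block (1.03, adjusted p = 0.0494 with the averaged sample shown by its first array, against 0.0574 with its second). The mean of the probes includes the dim Esr1 probe, which passed the filter only through CTL_BAT, so that setting is no separate support. Leaving out single samples gave 0.89 to 1.22 for the control depot difference of Esr1, -1.12 to -0.0046 for its WAT knockout difference and 0.96 to 2.07 for its interaction.

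The values of the dim probes turned direction or crossed the threshold more often, and those that turned did not pass. Values of Esr2 that involve AdipoKO_BAT are differences of signals not well above background and are no sizes of a change. With normexp, run on the median signal, Esr2 gave 0.52 for the BAT knockout difference, 0.29 for the interaction, -0.25 between control depots and 0.041 between knockout depots; Pgr gave 0.38 for the interaction and 0.026 between knockout depots; and the second Esr1 probe gave 0.50 for the BAT knockout difference, 0.37 for the interaction and -0.041 between control depots. With quantile normalization Pgr gave -0.015 for the WAT knockout difference and 0.16 for the interaction, and the second Esr1 probe gave -0.34, 0.20 and, between knockout depots, 1.25, which passed, as did 0.93 with array medians and 1.10 without AdipoKO_WAT 4. With the near-identical arrays as 2 samples the Pgr interaction was 0.19 and the second Esr1 probe gave -0.044 for the WAT knockout difference and 0.034 for the interaction. With slide as a block, using the first array, these 3 values were 0.11, -0.17 and 0.16, and with the replicate block 0.10, -0.19 and 0.18. The control depot difference of the second probe was 1.05 in these 3 settings and 1.17 without CTL_WAT 1 and 4, and passed in none of them. Leaving out single samples gave, for Pgr, an interaction of -0.63 to 0.23, for Esr2 -0.047 to 0.58 between control depots, and for the second Esr1 probe -0.063 to 0.83 (WAT knockout), -0.17 to 0.084 (BAT knockout), -0.84 to 0.053 (interaction), 0.94 to 1.23 (control depots) and 0.205 to 1.10 (knockout depots). The replicate block changed no other call.

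Counts of features called moved more. In WAT knockouts 15 became 1 with normexp, 24 with quantile normalization, 61 with array medians, 265 with the near-identical arrays as 2 samples, 5 and 6 with slide blocks, 0 with only the 2 groups and 4 without CTL_WAT 1 and 4, and 7 to 9236 with single samples left out. In BAT knockouts 4 became 22 with the near-identical arrays as 2 samples, 12 with only the 2 groups and 0 with normexp, no filter, the slide and replicate blocks, without AdipoKO_BAT 1 and 2 and without CTL_WAT 1 and 4, and 0 to 85 with single samples left out. The interaction count of 1 became 2 with quantile, array median or 2-sample settings, 0 with normexp, with the blocks that used the second array and with either pair of samples left out, and 1 to 4067 with single samples left out. Between knockout depots 7677 became 3620 with normexp and 2980 with only the 2 groups, and 4496 to 11445 with single samples left out; between control depots 8367 became 5268 without CTL_WAT 1 and 4. Of the pathway genes, 1 passed in WAT knockouts with quantile normalization or array medians, 2 with the near-identical arrays as 2 samples and 0 to 35 with single samples left out. In BAT knockouts that range was 0 to 1, in the interaction 0 to 20 and between knockout depots 16 to 36, where only the 2 groups gave 11. AdipoKO_WAT 4 was the sample left out at each of these upper ends. Why these counts moved was not tested. Signal over background limits what can be said of Esr2, Pgr and the second Esr1 probe.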
